A study of Homo sapiens with 15 samples.

Results

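The DOCK genes encode a family of guanine nucleotide exchange factors, and their transcripts were followed through 15 Affymetrix arrays of A549, an epithelial cell line from a human lung adenocarcinoma. The 9 genes described, of 19775 gene symbols on the array, are DOCK1, DOCK2, DOCK4, DOCK5, DOCK6, DOCK8, DOCK9, DOCK10 and DOCK11. Every probe set annotated to 1 of these symbols was taken, which gave 37 of the 54675 probe sets on the array, and 25 of the 37 passed the filter on low signals. The genes were picked with values measured on these arrays in view, and which comparison was used is not stated in the sources used here. Every comparison is therefore treated as used, and the changes of the DOCK genes are given as a description with no test read from them.

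The arrays fell into 5 groups of 3. Cells were non-treated, or received dexamethasone for 6 hours, or received dexamethasone for 6 hours in combination with 48 hours of mifepristone, of match polyamide or of mismatch polyamide. No group received mifepristone or a polyamide without dexamethasone. What those compounds do alone thus cannot be told from a change in the response to the hormone. All cells were kept in F12K medium with charcoal-treated serum. Dexamethasone is a synthetic glucocorticoid that activates the glucocorticoid receptor, mifepristone is an antagonist of that receptor, and polyamides are synthetic molecules that bind in the minor groove of DNA. The match polyamide is directed to the glucocorticoid response element, the sequence that the activated receptor binds. Doses, and whether the first 2 groups received a vehicle for the longer time, were not stated in the labels. The labels do not say that replicate arrays came from separate cultures, so the spread between arrays, and each adjusted p, may reflect technical variation alone. A lower signal can mean fewer cells that make a transcript or less RNA per cell, and these cannot be told apart in bulk RNA.

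DOCK proteins switch on small GTPases by exchanging their GDP for GTP through a catalytic domain called DHR2, which is unrelated to the Dbl-homology domain of the larger family of exchange factors. The A group (DOCK1, DOCK2 and DOCK5) and the B group (DOCK3 and DOCK4) act on Rac and work with ELMO scaffold proteins. DOCK6 and DOCK8, of the C group, act on Rac and Cdc42, and the D group (DOCK9, DOCK10 and DOCK11) acts on Cdc42. In epithelial cells active Rac and Cdc42 drive lamellipodia, filopodia and cell migration, while DOCK2 and DOCK8 are best known from blood cells.

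The promoter sequences of the genes that dexamethasone moved are shown first, because the polyamide was designed against a receptor-binding sequence. RefSeq windows on GRCh38.p14, running from 250 bases before to 50 bases after an annotated transcript start, were given for 7 of the 9 genes, 11 windows in all, and DOCK5 and DOCK6 had none. The hexamer AGAACA, a half-site of the glucocorticoid response element, was searched on both strands (TGTTCT on the other). It was found in 1 of the 11 windows, that of DOCK4, at base 6 counted from the transcript start as 1. Of all 35116 windows of that length, 5192 (14.8%) hold it. The stretch of 30 bases around the match lies at chr7:112206377-112206406 on the minus strand, with the hexamer in capitals.
DOCK4 match: gttcagtgaatcAGAACAatgactgcgccg
The 250 bases upstream of the DOCK4 start lie at chr7:112206400-112206649 (minus strand), and those of the first DOCK10 start at chr2:225042469-225042718 (minus strand). They are printed together because the transcripts of these genes went opposite ways with dexamethasone, and neither holds the hexamer, so no letters are in capitals.
DOCK4 upstream: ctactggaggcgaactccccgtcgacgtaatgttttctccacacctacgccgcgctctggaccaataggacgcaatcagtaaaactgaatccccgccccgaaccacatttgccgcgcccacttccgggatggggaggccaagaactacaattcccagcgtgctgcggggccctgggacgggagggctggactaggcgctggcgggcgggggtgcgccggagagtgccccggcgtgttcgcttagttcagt
DOCK10 upstream: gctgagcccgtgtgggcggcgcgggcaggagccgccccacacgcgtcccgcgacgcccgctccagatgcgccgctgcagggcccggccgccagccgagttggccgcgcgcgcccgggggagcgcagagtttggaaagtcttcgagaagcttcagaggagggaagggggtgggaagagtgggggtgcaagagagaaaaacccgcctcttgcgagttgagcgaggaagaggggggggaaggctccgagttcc
A match is a run of letters and not evidence that the receptor binds there, and a window without one says only that those letters are not in it. The GC content of the DOCK4 window was 64%, and those of the 3 DOCK10 windows were 69.7%, 44.7% and 38.3%, against a median of 58.7% over all windows.

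Signals below are quantile-normalized MAS5 signals on a linear scale, and their median over all probe sets was 18.2. A log2 change is a difference of group means of log2(signal + 16) from a limma fit to all 15 arrays, given with its standard error (SE) for 3 arrays per group. A probe set was called when its p-value, with Benjamini-Hochberg adjustment over all 39744 probe sets tested, was under 0.05. The added 16 makes log2 changes of dim probe sets smaller than their ratios of signal. As deposited, the arrays had 2% trimmed means from 87.2 to 147.1, and those of the mifepristone group were the brightest on average. Epithelial keratins stood near the top of each array (KRT18 median signal 8770) and the epithelial adhesion genes EPCAM and CDH1 were present (medians 252 and 302), while CLDN4 was low at a median of 14. The leukocyte antigen PTPRC had a median of 7.13, and 3 of 8 leukocyte markers had a median under the 40th percentile of the arrays. Of the 8, LCP2 was lowest at a median of 4.56, and CD53 was highest at 29.8, above the array median. The summed signal of the 8 was 91.1 to 108 on the dexamethasone arrays, 119 to 171 on the match arrays and 116 to 156 on the mismatch arrays. Endothelial markers summed to 48.5 to 60.2, 46.1 to 92.4 and 42.9 to 55.3 in the same groups, and fibroblast markers to 158 to 229, 288 to 345 and 216 to 303. The 7 epithelial markers had no median under the 40th percentile. They summed to 23700 to 24200 with dexamethasone, 17500 to 20000 with match and 21900 to 22400 with mismatch, without overlap. In non-treated cells they summed to 20800 to 21600, and with mifepristone to 19800 to 20800, which overlaps match. In the same order, leukocyte markers summed to 95 to 125 and 92.5 to 121. Fibroblast markers summed to 218 to 238 and 173 to 242, and endothelial markers to 54.5 to 57.6 and 47 to 62.8. In the fibroblast list 3 of 7 markers had a median under the 40th percentile, PDGFRB lowest at 2.54 and COL1A1 highest at 133. In the endothelial list 4 of 5 did, CDH5 lowest at 2.95, and PECAM1 was highest at 36.2. The part of these markers in the changes below was not tested.

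In non-treated cells 6 DOCK genes gave a clear signal. The probe set with the highest mean for each stood at 766 ± 69.1 (SD, n = 3) for DOCK5, 444 ± 15.9 for DOCK10, 233 ± 16.6 for DOCK9, 175 ± 5.39 for DOCK4, 127 ± 9.82 for DOCK1 and 121 ± 9.99 for DOCK11. Probe sets differ in how strongly they bind, so these values do not rank the genes. DOCK6 was dimmer at 47.8 ± 3.21, and DOCK8 lay under the array median at 11.8 ± 2.98. Both probe sets of DOCK2 were left out by the filter, with signals between 0.745 and 14.3 on all 15 arrays. The filter left out 12 probe sets in all, 3 of DOCK4, 2 each of DOCK1, DOCK2, DOCK5 and DOCK8, and 1 of DOCK6, and no signal among them exceeded 18.4. DOCK3, which is not among the 9 genes, had 1 probe set that was left out in the same way (0.845 to 12.9).

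**Figure D1:**
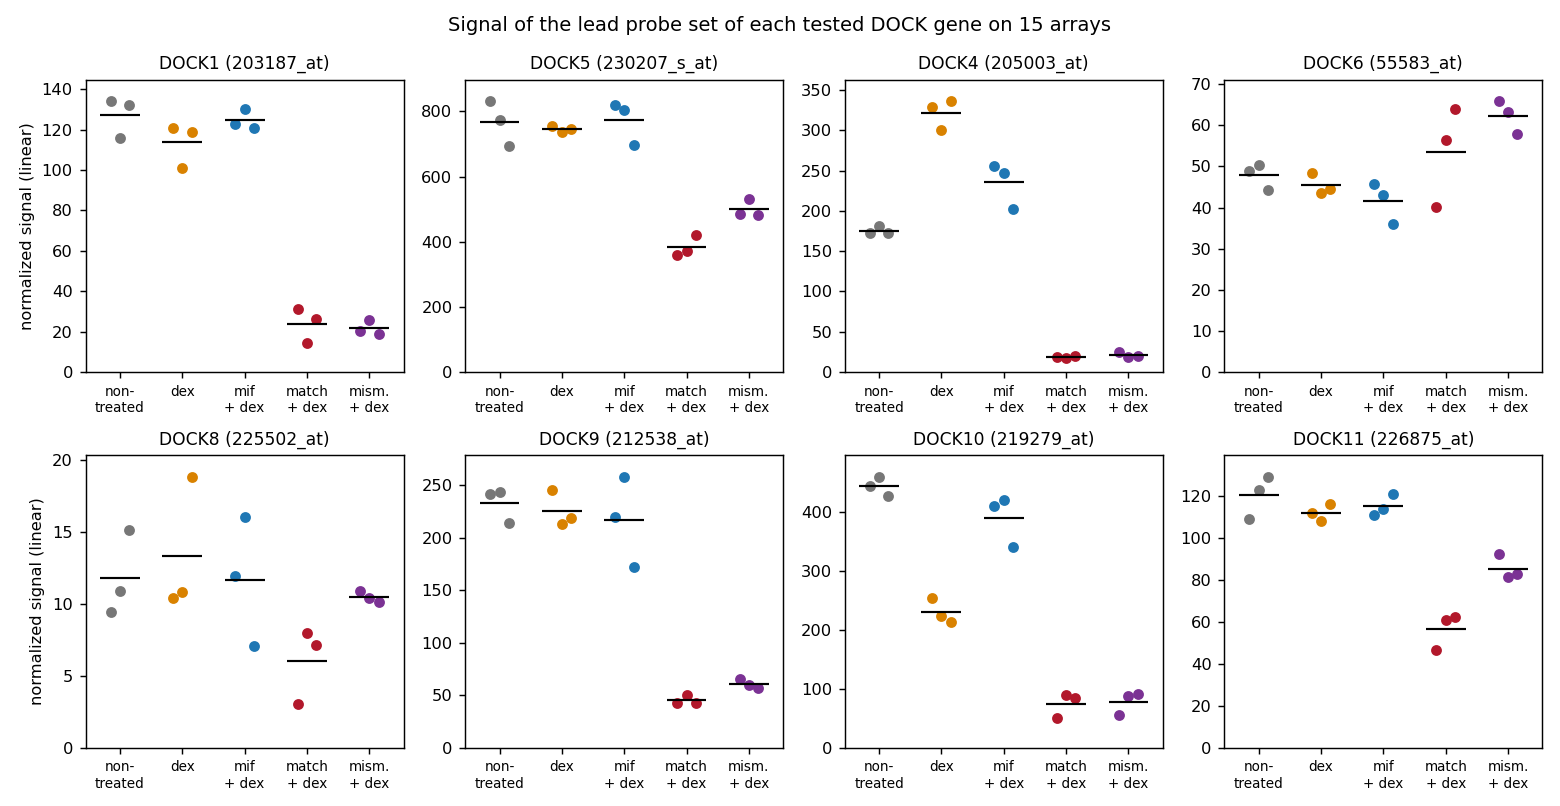
Normalized signal (linear axis from 0) of the lead probe set of the 8 DOCK genes with a tested probe set, 1 point per array and a bar at the mean of 3 arrays, for non-treated cells, dexamethasone (dex), mifepristone (mif) with dexamethasone, and match or mismatch (mism.) polyamide with dexamethasone. DOCK4 was at 301 to 336 with dexamethasone and at 17.6 to 24.4 on the 6 polyamide arrays, while DOCK6 kept signals of 35.9 to 65.8 throughout.

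Dexamethasone against non-treated cells asks which transcripts the hormone alters within 6 hours, and it moved 1 DOCK transcript up and 1 down. DOCK4, a Rac exchange factor of the B group, had signals of 172, 181 and 172 in non-treated cells and 329, 301 and 336 with dexamethasone. Its 3 hormone arrays lay above its 3 non-treated arrays without overlap, and the rise was 0.82 (SE 0.12), a ratio of mean signals of 1.84. DOCK10, a Cdc42 exchange factor of the D group, had signals of 445, 460 and 428 in non-treated cells and 255, 224 and 213 with dexamethasone. These groups did not overlap either, and the fall was -0.90 (SE 0.16), a ratio of 1.93. The second DOCK10 probe set, 215151_at, stayed at or below 15.4 on all arrays and was not called (-0.37).

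These were the 2 called of the 25 tested DOCK probe sets, where 4.86% of all probe sets tested were called. DOCK1, DOCK5, DOCK9 and DOCK11, which were well above the array median, were not called. Their lead probe sets changed by -0.15 (95% CI -0.47 to 0.17) for DOCK1, -0.03 (-0.21 to 0.14) for DOCK5, -0.05 (-0.31 to 0.22) for DOCK9 and -0.09 (-0.34 to 0.15) for DOCK11. Changes of more than 0.47 on this scale lie outside each of these intervals. The median over the 25 probe sets was -0.05 and that over all probe sets -0.01.

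Mifepristone with dexamethasone, compared with dexamethasone alone, asks how far the antagonist takes the hormone's changes back, and it moved the same 2 probe sets the other way. DOCK10 signals with mifepristone were 411, 421 and 341, all above the 3 dexamethasone arrays. The difference was 0.72 (SE 0.16), a ratio of 1.70, and it was 0.67 to 0.68 and not called without dexamethasone replicate 3 or mifepristone replicate 1 or 2, nor was it called without a variance trend (0.72). DOCK4 signals were 256, 247 and 203, all below the dexamethasone arrays and all above the non-treated ones. The difference of -0.43 (SE 0.12) was lost when any 1 of the 6 arrays was left out (-0.49 to -0.34) or with a pseudocount of 1 (-0.46), and it was 0.01 on the signals as deposited and 0.08 with scaling on spike-in controls. In this comparison 3.54% of all probe sets were called. The 2 other scalings moved the median of all probe sets by 0.35 and 0.40, so against that median DOCK4 was lower under each of them.

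Set directly against non-treated cells, where 0.166% of all probe sets were called, cells with mifepristone and dexamethasone differed by 0.39 (SE 0.12) for DOCK4 and by -0.18 (SE 0.16) for DOCK10. Neither was called, and 0 of the 25 DOCK probe sets were called by limma, with 2 higher at an unadjusted p under 0.05. The 3 mifepristone arrays lay above the 3 non-treated arrays for DOCK4 and below them for DOCK10.

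**Figure D2:**
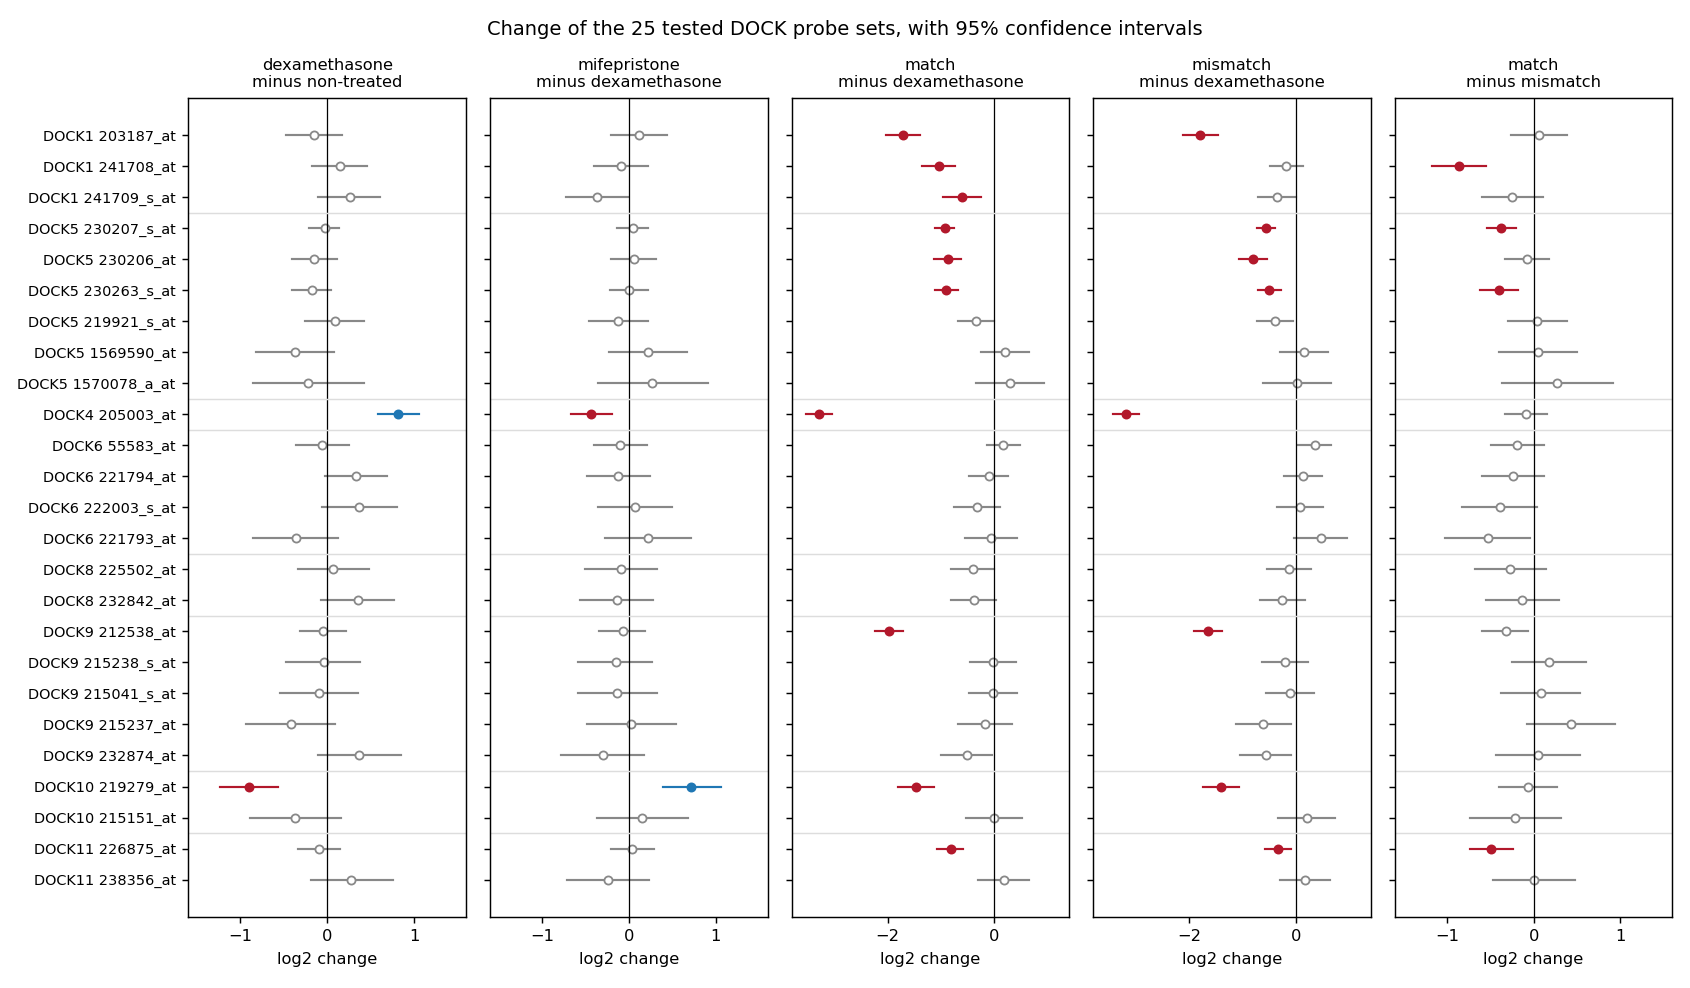
Log2 change of each of the 25 tested DOCK probe sets in 5 comparisons, as points with 95% confidence intervals from the fit (3 arrays per group), blue where called higher, red where called lower and open where not called; the axis range differs between panels. DOCK4 and DOCK10 are the called points in the hormone and antagonist panels, and every called point in the 3 polyamide panels lies below 0.

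Both polyamides, each given with dexamethasone and compared with dexamethasone alone, lowered the transcripts of 6 DOCK genes, DOCK1, DOCK4, DOCK5, DOCK9, DOCK10 and DOCK11. With the match polyamide 10 of the 25 probe sets were called, all lower, against 30.8% of all probe sets called in either direction and 15% called lower, and 5 fell by at least 2-fold. With the mismatch polyamide 8 were called, all lower, against 22.9% in either direction and 10.9% lower, and 4 fell by at least 2-fold. The median change of the 25 was -0.39 with match and -0.26 with mismatch, and over all probe sets it was 0.03 and 0.02. The mismatch count was 5 on the signals as deposited and 5 with spike-in scaling, and the mismatch call of DOCK11 was lost when any 1 of the 6 arrays was left out. The 2 comparisons share the 3 dexamethasone arrays. The genes were picked with values of these arrays in view, and these contrasts are treated as used in that choice. The counts are therefore a description, and nothing is read from them against the background.

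DOCK4 had the widest range of group means among the DOCK genes, 3.28 on the log2 scale. The probe set 205003_at fell from 329, 301 and 336 with dexamethasone to 19.2, 17.6 and 19.7 with match polyamide and to 24.4, 18.4 and 20.2 with mismatch polyamide. The changes were -3.28 (SE 0.12) and -3.19 (SE 0.12), and the measured mean signals had ratios of 17.1 and 15.3. All 6 polyamide arrays lay far below the non-treated arrays as well (172 to 181). Their means of 18.8 and 21.0 were at the array median, about the level of the brightest signals that the filter left out, so the ratios are uncertain in size. The gene, at chr7:111726110-112206399, spans 480 kb.

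DOCK1, the founding member of the A group and a partner of ELMO in the uptake of dying cells and in migration, had a lead probe set (203187_at) at 121, 101 and 119 with dexamethasone. It was at 31.1, 14.2 and 26.2 with match and at 20.1, 25.9 and 18.8 with mismatch, with changes of -1.72 and -1.79 (SE 0.15 each). Its other tested probe sets were less uniform. The signals of 241708_at were 63.6, 74.0 and 63.8 with dexamethasone, 25.8, 20.7 and 26.8 with match and 63.4, 54.1 and 54.7 with mismatch. It was called lower with match (-1.04, SE 0.15) and not with mismatch (-0.18, SE 0.15). For 241709_s_at the change was -0.60 (SE 0.17) with match, not called without dexamethasone replicate 1 (-0.50), as deposited (-0.53) or with spike-in scaling (-0.37), and -0.35 (SE 0.17) with mismatch, not called. The files do not say which transcripts of DOCK1 each probe set reads.

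DOCK5, the relative of DOCK1 in the A group, changed by less than 1 on the log2 scale. The signals of 230207_s_at were 754, 737 and 747 with dexamethasone, 360, 371 and 420 with match and 485, 532 and 483 with mismatch. The 3 groups did not overlap, and the changes were -0.93 and -0.56 (SE 0.08 each). The probe sets 230206_at (-0.87 and -0.80) and 230263_s_at (-0.90 and -0.50) were called lower with both as well. The mismatch changes of 230207_s_at and 230263_s_at were -0.37 and -0.31 on the signals as deposited and -0.46 and -0.41 with spike-in scaling, and none of the 4 was called. The 3 other tested DOCK5 probe sets, none above 79 on any array, were not called with either polyamide.

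All 3 members of the D group fell on their lead probe sets. DOCK10 signals dropped from 255, 224 and 213 to 50.4, 89.6 and 83.9 with match and to 56.3, 87.2 and 91.8 with mismatch. These are changes of -1.47 and -1.40 (SE 0.16 each) from the level with dexamethasone alone, which was itself below that of non-treated cells. Each polyamide array lay below each array of the other 3 groups. DOCK9, also known as zizimin1, had not changed with dexamethasone beyond its spread, and its probe set 212538_at went from 246, 213 and 219 to 43.0, 50.6 and 43.1 with match and to 65.7, 59.5 and 57.3 with mismatch. The changes were -1.97 and -1.65 (SE 0.13 each). The 4 other DOCK9 probe sets did not exceed 36 on any array and were not called.

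DOCK11, or zizimin2, fell less. Its probe set 226875_at was at 112, 108 and 116 with dexamethasone, 46.4, 61.0 and 62.2 with match and 92.2, 81.3 and 82.6 with mismatch. With match the change was -0.82 (SE 0.12). With mismatch it was -0.34 (SE 0.12), with arrays that did not overlap, and the call was lost without any 1 of the 6 arrays (-0.38 to -0.31). DOCK11 was called in 4 of the 16 settings tried for that comparison, against 16 of 16 for the lead probe sets of DOCK1, DOCK4, DOCK9 and DOCK10.

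No probe set of the C group was called with either polyamide. DOCK6 signals of 55583_at were 48.3, 43.5 and 44.4 with dexamethasone, 40.1, 56.4 and 63.9 with match and 65.8, 63.2 and 57.8 with mismatch. The changes were 0.16 (95% CI -0.14 to 0.47) and 0.35 (0.04 to 0.66), and neither was called over all probe sets, although the 3 mismatch arrays lay above the 3 dexamethasone arrays. The 3 other tested DOCK6 probe sets were not called. DOCK8 was dim, with no signal above 18.8. Its lead probe set, 225502_at, was at 10.4, 10.8 and 18.8 with dexamethasone, 3.07, 7.95 and 7.14 with match and 10.9, 10.4 and 10.1 with mismatch. The changes were -0.41 (95% CI -0.82 to 0) and -0.14 (-0.55 to 0.28). On both tested DOCK8 probe sets the match arrays lay below the dexamethasone arrays without overlap, with ratios of 2.21 and 2.04, and neither was called.

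The match and mismatch polyamides can be set against each other at the same exposure time, with their doses unknown here. Over all probe sets 16.9% differed between them, and 9.38% were lower with match. Of the 25 DOCK probe sets 4 were called, all lower with match, with a median of -0.13 against 0.01 over all probe sets. They were 241708_at of DOCK1 (-0.86, SE 0.15), 230207_s_at (-0.37, SE 0.08) and 230263_s_at (-0.40, SE 0.11) of DOCK5, and 226875_at of DOCK11 (-0.49, SE 0.12). In each the 3 match arrays lay below the 3 mismatch arrays. With spike-in scaling, which moved the median of all probe sets by 0.16, the 2 DOCK5 differences were -0.22 and -0.25 and that of DOCK11 was -0.32, and 1 of the 4 calls was left, that of DOCK1. The call of 230263_s_at was also lost without mismatch replicate 2 (-0.29) and as deposited (-0.55), and that of DOCK11 as deposited (-0.58) and with only the 6 compared arrays in the fit (-0.49).

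For DOCK4, DOCK10 and the lead probe set of DOCK1 no difference between the compounds was called. DOCK4 differed by -0.09 (95% CI -0.33 to 0.16), DOCK10 by -0.07 (-0.40 to 0.27) and the lead probe set of DOCK1 by 0.06 (-0.26 to 0.38), and the arrays of the 2 groups overlapped in each. With means of 18.8 and 21.0 for DOCK4 and 23.8 and 21.6 for DOCK1, both near the array median of 18.2, a difference between the compounds could hardly show there. DOCK9 was lower with match by -0.32 (-0.59 to -0.06) with arrays that did not overlap, and it was not called over all probe sets.

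Most of the DOCK genes are long. Of the 8 with a tested probe set 7 span at least 100 kb on GRCh38.p14, and 6 of these 7 were called lower with each polyamide, DOCK11 with mismatch in 4 of 16 settings and the lead probe set of DOCK5 with mismatch under neither the deposited nor the spike-in scaling. DOCK1 (chr10:126905428-127452516) spans 547 kb, DOCK9 (chr13:98793429-99088619) 295 kb, DOCK10 (chr2:224765090-225042468) 277 kb, DOCK5 on chromosome 8 spans 231 kb and DOCK11 (chrX:118495815-118686147) 190 kb. DOCK8, the long gene not called, spans 254 kb and was dim (at most 18.8). DOCK6 (chr19:11199295-11262524), the 1 gene of 63 kb, was the only member whose lead probe set had a positive change with both compounds, and neither change was called. Its other tested probe sets, also not called, were at -0.11, -0.32 and -0.07 with match and at 0.13, 0.07 and 0.46 with mismatch.

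Long genes as a class had lower signals with both polyamides. Among 2856 genes of at least 100 kb, represented by 1 probe set each, 44.9% were called lower and 5.18% higher with match, with a median of -0.34. With mismatch 34.8% were lower and 4.10% higher, with a median of -0.21. Among 13466 shorter genes 11.6% and 6.91% were lower, with medians of 0.11 in both. Over all 16358 genes 17.4% were lower and 21.5% higher with match, and 11.8% and 17.9% with mismatch. DOCK5, DOCK10, DOCK9, DOCK1 and DOCK4 lay below the median of genes of at least 200 kb, -0.51 with match and -0.36 with mismatch, and DOCK8 above it. With dexamethasone alone the median of the long genes was -0.04, the same as that of the shorter ones. Whether span has a part in the DOCK changes was not tested.

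**Figure D3:**
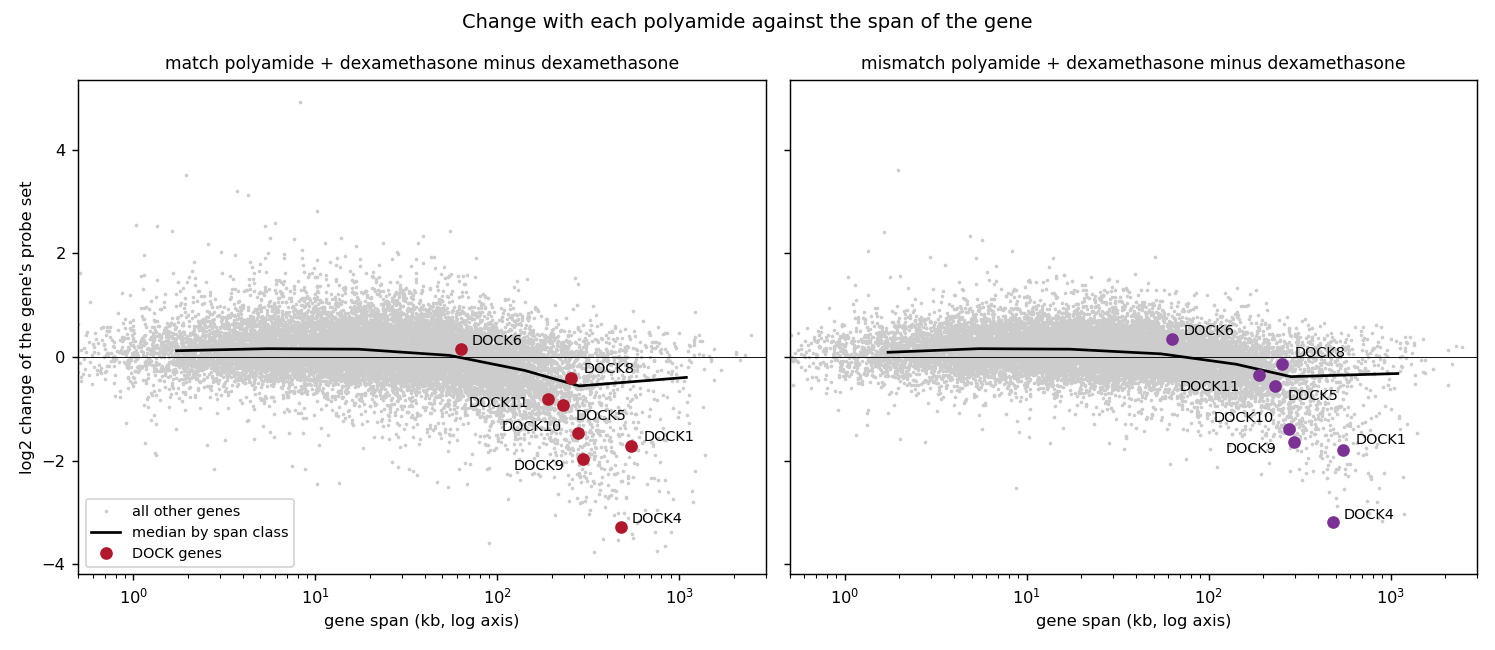
Log2 change with each polyamide (vertical axis) against gene span in kb (log axis) for 16322 genes, with the DOCK genes as large labelled points and a line through the medians of span classes. DOCK6, at 63 kb, lies above 0 in both panels with neither change called. DOCK4, at 480 kb, is the lowest DOCK gene at -3.28 and -3.19.

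The genes most like a DOCK gene over the 5 groups were sought for the 3 members with the widest range, by the root mean square difference of centred log2 group means. For DOCK4 the nearest of 101 candidates were VPS13B (0.269), PRKCA (0.287) and LPP (0.288). VPS13B encodes a lipid-transfer protein of the Golgi, PRKCA protein kinase C alpha, and LPP a protein of focal adhesions. VPS13B had mean signals of 114 in non-treated cells, 122 with dexamethasone and 123 with mifepristone, against 6.90 with match and 8.11 with mismatch. PRKCA and LPP had the same shape, high in the 3 groups without a polyamide and low in the polyamide groups. The rise of DOCK4 with dexamethasone, from a mean of 175 to 322, was not matched in size. VPS13B went from 114 to 122, LPP from 334 to 371 and PRKCA from 807 to 775. For DOCK10 the nearest of 382 were ATXN1 (0.130), SNAP25 (0.169) and ARHGAP18 (0.178), a GTPase-activating protein. ARHGAP18 went from 502 in non-treated cells to 289 with dexamethasone, 467 with mifepristone, and 100 and 134 with match and mismatch, the order of group means that DOCK10 showed. For DOCK9 the nearest of 638 were PLCE1 (0.050), COL5A1 (0.066) and LBH (0.069). Each likeness rests on 5 group means of 15 shared arrays and is a description.

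Partners, targets and regulators of the DOCK proteins were taken from lists of genes of the pathway, 1 probe set per gene and with limma adjusted p over all probe sets. ELMO1, the scaffold that holds DOCK proteins at the membrane, fell with match from a mean of 49.4 to 2.99 (-1.79, SE 0.18, adjusted p = 1.5e-07) and with mismatch to 9.79 (-1.34, SE 0.18, adjusted p = 1.4e-05). ELMO1 itself spans 596 kb, and whether span has a part in its change was not tested. ELMO2 rose with match by 0.33 (SE 0.09, adjusted p = 0.0095), and on the signals as deposited the change was 0.35 and not called (adjusted p = 0.214). It stood at 0.19 with mismatch (adjusted p = 0.17). ELMO3 was at 0.64 with match (SE 0.23, adjusted p = 0.041), and at 0.52 with mismatch (adjusted p = 0.13). The match call was lost without dexamethasone replicate 1 or 2 or match replicate 2 or 3 (changes of 0.48 to 0.59, adjusted p = 0.114 to 0.186), and with no filter or only the compared arrays (0.64 in both, adjusted p = 0.0755 and 0.0656). Dexamethasone left the 3 ELMO genes uncalled (0.08, -0.08 and -0.32), and so did mifepristone (-0.13, 0.07 and 0.34). With mifepristone ELMO2 was called higher as deposited (0.52, adjusted p = 0.0468) and with spike-in scaling (0.58, adjusted p = 0.0177). ELMO3 was called higher with spike-in scaling (0.62, adjusted p = 0.0446). The median of all probe sets was 0.35 as deposited and 0.40 with spike-in scaling in that comparison.

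The list of ELMO and CRK partners held 9 tested genes, of which 2 rose and 3 fell with match and 1 rose and 3 fell with mismatch. Over all genes 21.5% rose and 17.4% fell with match, and 17.9% rose and 11.8% fell with mismatch. ANKRD28, a CRK-pathway scaffold that binds DOCK1, fell by 1.26 on the log2 scale with match (SE 0.08, adjusted p = 1e-10) and stood at -0.40 with mismatch (adjusted p = 0.00064), a call lost as deposited (-0.20) and with spike-in scaling (-0.29). WIPF1, which binds WASP proteins, was at -0.90 and -0.62 (adjusted p = 1.9e-06 and 0.00031), the latter -0.48 and not called as deposited (adjusted p = 0.0838). Dexamethasone raised 1 of the 9 genes, ANKRD28 (0.34, adjusted p = 0.0095), where 6.80% of all genes were called. That call was lost without non-treated replicate 3 (0.29), as deposited (0.35), with spike-in scaling (0.27) and without a variance trend (0.34), with adjusted p = 0.0728, 0.55, 0.744 and 0.0731. ANKRD28 was also the 1 called with mifepristone, where 5.28% of all genes were called, at -0.31, and that turned to 0.13 and 0.20 under the deposited and spike-in scalings.

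Of 14 tested GTPases of the Rac, Cdc42 and Rap groups, 3 rose and 3 fell with match, where 21.5% of all genes rose and 17.4% fell, and 3 rose and 2 fell with mismatch, where 17.9% rose and 11.8% fell. These counts are close to those shares. RAP2B rose by 1.29 and 1.28 (SE 0.06 each, adjusted p = 3.3e-12 and 2e-11) and RHOV, an atypical GTPase of the Cdc42 branch, by 1.55 and 1.57 (SE 0.14 each). RHOU, its close relative, rose with the hormone, with a mean of 231 in non-treated cells and 468 with dexamethasone (0.97, adjusted p = 4.6e-07). Mifepristone brought RHOU to 209 (-1.10), match polyamide to 217 (-1.06, adjusted p = 2.3e-08), and mismatch polyamide raised it to 675 (0.50, adjusted p = 0.00046). RAC1 and CDC42, the main substrates, are named here after their values were seen. RAC1 was at -0.10 (adjusted p = 0.11) with match and -0.19 (adjusted p = 0.0048) with mismatch, the latter 0.05 as deposited, -0.14 with trimmed-mean scaling and -0.04 with spike-in scaling, and called under none of these. With mifepristone RAC1 was at -0.18 (adjusted p = 0.034), which turned to 0.17 as deposited and 0.24 with spike-in scaling and was lost without any 1 of the 6 arrays. CDC42 was at -0.30 (adjusted p = 0.19) and -0.39 (adjusted p = 0.094), and it was called lower with match in a fit of only the compared arrays (-0.30, adjusted p = 0.0176) and with mismatch without mismatch replicate 3 (-0.59, adjusted p = 0.00849).

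Exchange factors of the Dbl family, the other route to active Rac and Cdc42, moved in both directions. Of 31 tested genes 6 rose and 11 fell with match, with a median of -0.08, and 5 rose and 10 fell with mismatch, with a median of -0.09. Over all genes 21.5% rose and 17.4% fell with match, 17.9% and 11.8% with mismatch, and the medians were 0.05 and 0.07. FGD4, a Cdc42 exchange factor, rose 2.61 with dexamethasone (SE 0.13, adjusted p = 1.5e-11; mean 46.6 to 368) and was lower than that by -2.19 with mifepristone, -2.28 with match and -0.90 with mismatch (adjusted p up to 1.8e-05). VAV3, a Rac exchange factor, fell with dexamethasone as DOCK10 did (-0.78, SE 0.11, adjusted p = 9.2e-05). Against dexamethasone alone, VAV3 was higher with mifepristone (0.71, adjusted p = 4e-04) and lower with match (-0.79, adjusted p = 1.1e-05). It was not among the 4 lowest adjusted p-values of the list with mismatch or between the polyamides, and those values are not described. TRIO fell with match (-1.14, SE 0.17) and mismatch (-1.29, SE 0.17), and PLEKHG2 rose with match (1.10, SE 0.18). With dexamethasone 1 of the 31 rose and 3 fell (6.80% of all genes called), and with mifepristone 3 rose and 2 fell (5.28%).

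GTPase-activating proteins, which end the signal, had 6 of 17 tested genes lower with match, where 17.4% of all genes were lower, and 4 lower with mismatch, where 11.8% were. None rose by limma, also at an unadjusted p under 0.05 (0 higher with each). CHN1, a Rac GTPase-activating protein, fell from 267 to 92.3 and 135 (-1.39 and -0.91, SE 0.10 each), and SRGAP1 from 209 to 44.7 and 60.5 (-1.94 and -1.52, SE 0.24 each). With dexamethasone 1 of the 17 fell, ARHGAP21 (-0.39, adjusted p = 0.019), where 6.80% of all genes were called. With mifepristone ARHGAP21 rose (0.40, adjusted p = 0.017), where 5.28% were called. Both ARHGAP21 calls were lost without dexamethasone replicate 2 or 3, and without replicate 1 or 2 of the group set against it. Both were also lost without a variance trend, and the dexamethasone call as deposited (-0.37) and with spike-in scaling (-0.45). The 3 GDP dissociation inhibitors, which hold GTPases inactive in the cytosol, were not called in any comparison described here with all arrays, and at an unadjusted p under 0.05 1 was lower with mismatch and 0 changed with match. That 1 was ARHGDIA (-0.57 with mismatch), named after its value was seen. It was called lower with mismatch without mismatch replicate 3 (-0.87, adjusted p = 0.0128), and called higher with match than with mismatch (0.63 in the full fit) without match replicate 2 (0.86) or mismatch replicate 3 (0.92).

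Effectors, the proteins that active Rac and Cdc42 bind, included 8 of 30 lower and 4 higher with match and 5 lower and 5 higher with mismatch. Over all genes 17.4% were lower and 21.5% higher with match, and 11.8% and 17.9% with mismatch. CDC42EP3, an effector that acts on septins and actin, rose with dexamethasone from 381 to 1490 (1.92, SE 0.09, adjusted p = 1.3e-11). It was at 722 with mifepristone (-1.03), 449 with match (-1.70) and 641 with mismatch (-1.20), and the gene spans 31 kb. IQGAP2, a scaffold of active Cdc42 and Rac, fell from 160 to 9.89 and 47.9 (-2.78 and -1.46, SE 0.16 each), and the kinase CDC42BPA from 232 to 28.7 and 74.2 (-2.49 and -1.47, SE 0.18 each). BAIAP2, which bends membranes into filopodia, rose with dexamethasone (1.07, adjusted p = 4.4e-06) and was at -1.09 with mifepristone (adjusted p = 4.5e-06). Dexamethasone raised 4 of the 30 and lowered 1 (6.80% of all genes called), and mifepristone raised 1 and lowered 3 (5.28%).

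Between the polyamides, where 22.9% of all genes were called in either direction, the lists had 1 of 9 partners, 3 of 14 GTPases, 9 of 31 Dbl-family factors, 3 of 17 GTPase-activating proteins, 0 of 3 dissociation inhibitors (1 at an unadjusted p under 0.05) and 10 of 30 effectors called by limma. The largest among the named ones were lower with match. They were RHOU (-1.56, SE 0.09, adjusted p = 1.1e-09), FGD4 (-1.37, SE 0.13, adjusted p = 2.2e-07), ARHGAP24 (-1.36, SE 0.29, adjusted p = 0.0019) and IQGAP2 (-1.31, SE 0.16, adjusted p = 7.5e-06).

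**Figure D4:**
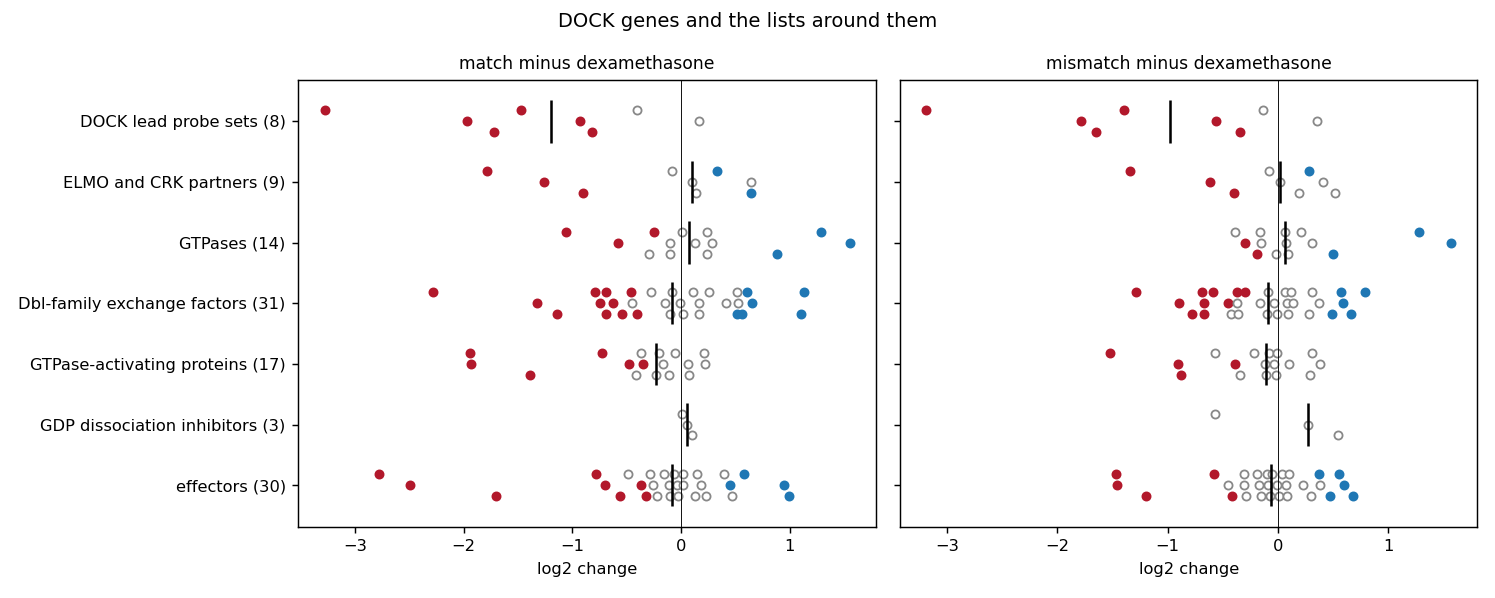
Log2 change of the 8 lead DOCK probe sets and of the tested genes of 6 lists (number tested in brackets) with each polyamide against dexamethasone alone, 1 point per gene and a bar at the median, blue where called higher, red where called lower and open where not called. Called rises occur in 4 of the 6 lists in both panels, and the DOCK row and the GTPase-activating proteins hold called falls and no called rise. The called DOCK points run from -3.28 for DOCK4 to -0.34 for DOCK11, and DOCK6 and DOCK8 are open.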

How the data were processed

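Total RNA of A549 cells was labelled with biotin and run on 15 Affymetrix arrays, 3 in each of 5 groups, per the labels. The deposited table held intensity signals (linear scale), which the submitters' processing notes attribute to MAS5. Its version and scaling target were not stated in the labels. Arrays were not scaled alike, so the authors' signals were quantile normalized here without 62 control probe sets, and log2(signal + 16) was taken.

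Probe sets with at least 3 of 15 arrays above their own 40th percentile were tested, 39744 of 54675 (72.7%). All 15 arrays entered 1 model with a coefficient for each group (limma 3.58.1, R 4.3.3, variance trend, 10 residual and 9.35 prior degrees of freedom), with Benjamini-Hochberg adjustment over all probe sets tested. The procedure was tested on simulated data. The number of arrays limits the precision.

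An annotation table gave 41097 probe sets 1 symbol, 1801 several and 11777 none. Each gene was represented by 1 tested probe set with its symbol alone, taking names without _x_at before others and then the highest mean (16358 genes; 16322, or 99.8%, with a RefSeq span). Named are the DOCK probe sets, the ELMO genes, genes among the 4 lowest adjusted p-values of a list, and the 3 most alike genes (range at least 0.75 times that of the DOCK gene). The members and lists were chosen with earlier results of these data known. Deviations of same-numbered arrays were correlated over 0.1 in 2 of 30 pairs, with a median of 0.0085 against 0.0025 for other pairs. Low correlations over all probe sets cannot settle whether the numbers pair the arrays, and the reported fit leaves pairing out. Array scaling, pseudocount, filter, variance trend, the arrays fitted, a replicate block and each array were varied.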

Additional observations from a re-analysis of the deposited data

How the results depend on the processing

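Of 763 values of DOCK probe sets under other settings, 720 stayed on the same side of the threshold, 37 lost a call, 4 gained one and 2 turned direction. The 2048 values of listed genes comprised 1918, 96, 27 and 7 in that order. A turn of direction was counted only for changes called in the reported fit. Uncalled changes that crossed 0, such as that of DOCK9 with mifepristone (-0.2 to 0.45 over the settings), are among the 720. The falls of DOCK4, DOCK9, DOCK10 and the lead probe set of DOCK1 with both polyamides, and the changes of DOCK4 and DOCK10 with dexamethasone, were called in all 16 settings tried for each. The count of called DOCK probe sets with mismatch was 5 instead of 8 on the signals as deposited and 5 with spike-in scaling, and that between the polyamides was 2 and 1 instead of 4. With mifepristone it was 7, all higher, with spike-in scaling, and 1 with a pseudocount of 1 or without a variance trend. Leaving out 1 array gave 2 to 2 with dexamethasone, 0 to 1 with mifepristone, 9 to 11 with match, 7 to 8 with mismatch and 3 to 5 between the polyamides. With the replicate number as a block the 5 counts were 2, 2, 10, 7 and 4, the lost call being that of DOCK11 with mismatch (adjusted p = 0.0509), and CDC42 was called with mismatch (0.0326). Over all probe sets, the signals as deposited gave 814 called with dexamethasone (1933 by the reported fit), 8142 with mifepristone (7910 higher; 1408), 7978 with match (12258) and 3094 between the polyamides (6699, with 556 higher and 2538 lower). Spike-in scaling gave 767, 12838 with mifepristone (12616 higher), 4624 with mismatch (9106) and 2847 between the polyamides (2135 higher and 712 lower), and with match 8217 higher and 2668 lower in place of 6311 and 5947. Among changes called in the reported fit, those that turned direction with mifepristone were DOCK4 (0.01 as deposited, 0.08 with spike-in scaling), ANKRD28 (0.13 and 0.20), RAC1 (0.17 and 0.24) and IQGAP1 (0.09 and 0.16). In that comparison those scalings moved the median of all probe sets by 0.35 and 0.40. With mismatch, RAC1 turned direction (0.05 as deposited). Dim probe sets, among them those of DOCK2 and DOCK8, limit what can be seen. The cause of these differences was not tested.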
